A study of Mus musculus with 2 samples.

Results

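The introns of the mouse gene Sfmbt2 hold a large array of miRNA genes of the miR-466, miR-467, miR-669 and miR-297 families. The rows described here are all rows of the deposited miRNA tables whose gene identifier lies, by GENCODE M21 on mm10, in a window on chromosome 2 that reaches just past both ends of Sfmbt2. This rule took 107 of 1973 rows, and no measured value entered it. The data are counts of short RNAs from hearts of mouse embryos at 13.5 days, of strain B6NCrl, healthy and untreated, with males and females pooled. There is 1 group with 2 libraries, named as biological replicates from separate biosamples, and no second condition to compare with. A library holds RNA of whole hearts, so fewer cells of a type and less RNA per cell cannot be told apart. By symbol the 107 rows are 14 of miR-467, 20 of miR-669, 20 of miR-466, 5 of miR-297 and 48 predicted miRNA genes with Gm names.

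A miRNA is excised from a hairpin in a longer transcript, and the mature strand of about the size sequenced here guides repression of mRNAs that pair with its seed, bases 2 to 8. Sfmbt2 encodes a Polycomb-group protein and is imprinted, with expression from the paternal allele in extraembryonic tissues. Its miRNA cluster is found in rodents and is best known from placenta and embryonic stem cells. Members arose by local duplication, and many differ from each other by few bases.

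Sfmbt2 spans 10370510 to 10595253 on the plus strand of chromosome 2. All 107 rows lie on that strand within 1 intron, from 10461473 to 10523944, between exons 10 and 11 of the transcript Sfmbt2-201. The rows themselves run from 10465287 to 10518279. None lies in an exon or UTR of that transcript. A further 12 miRNA genes that GENCODE M21 places in this window were matched to no row and were not analysed here. The tables also hold 79 identifiers that GENCODE M21 lacks, and whether any of them lies in the window is not known.

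The same 4 families have 10 rows elsewhere in the genome, all with 0 counts on both strands in both libraries. Mature sequences of 8 of them, from RefSeq on GRCm38.p6, are shown because they let the letters of these families be seen, with the seed in capitals:
miR-466q: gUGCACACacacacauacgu
miR-466k: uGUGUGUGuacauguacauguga
miR-466j: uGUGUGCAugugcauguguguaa
miR-466i-3p: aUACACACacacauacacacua
miR-467f: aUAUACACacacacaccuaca
miR-467g: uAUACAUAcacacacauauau
miR-467h: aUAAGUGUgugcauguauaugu
miR-669n: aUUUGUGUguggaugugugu
The 8 sequences carry 8 different seeds. Each holds a stretch that alternates between U and G or between C and A. The longest unbroken run ranges from 7 nucleotides in miR-467h and miR-466j to 12 in miR-466q and miR-467f.

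The cluster rows share that composition. In their hairpins a median of 48.6% of steps between neighbouring bases were UG, GU, CA or AC (range 32.5% to 66.7% over 107 rows). The median was 26.6% over the 1787 rows outside the cluster that have a hairpin sequence.

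The cluster took 0.331% ± 0.0118 (SD, n = 2) of all sense counts, which is 3314 ± 118 counts per 1000000 (CPM). Replicate 1 held 18924 counts in the cluster, or 0.340% of its sense counts (exact 95% interval 0.335 to 0.345), and replicate 2 held 19510, or 0.323% (0.319 to 0.328). These counts lay in few rows. Of 107 rows, 15 had a count in both libraries, 11 in 1 library and 81 in neither. Over all 1973 rows the numbers were 544, 148 and 1281. A row without a count can have held up to 3 counts, 0.539 CPM in replicate 1 and 0.497 CPM in replicate 2, and such limits cover counting error only. At least 10 CPM in both libraries was reached by 6 of 107 rows (5.61%), against 275 of 1866 rows outside the cluster (14.7%).

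The 6 rows were Mir467d, Mir467c, Mir467e, Mir669o, Mir669l and Mir669c. Together they made 99.2% ± 0.0510 of the cluster's counts. A miRNA read covers the mature strand whole, so levels are not divided by length, and each row sums both arms of its hairpin.

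Mir467d (ENSMUSG00000077021.2, 10507630 to 10507714) had 5700 counts in replicate 1 and 5188 in replicate 2, or 1023 CPM (exact 95% interval 997 to 1050) and 859 CPM (836 to 883). It was the highest row of the cluster in replicate 1, and its intervals did not overlap between the libraries. Mir467c (ENSMUSG00000077049.2, 10473931 to 10474027) had 5273 and 5618 counts, or 947 CPM (921 to 973) and 930 CPM (906 to 955). It was the highest row in replicate 2, with overlapping intervals. Mir467e (ENSMUSG00000076948.2, 10505721 to 10505807) had 4627 and 5165 counts, or 831 CPM (807 to 855) and 855 CPM (832 to 879). Among all 1973 rows these 3 ranked between 77 and 88 in each library.

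The order of Mir467d and Mir467c changed between the libraries: the log2 ratio of Mir467d over Mir467c was 0.11 in replicate 1 and -0.11 in replicate 2. Mir467c lay above Mir467e in both, by a log2 ratio of 0.15 ± 0.0476 (SD, n = 2), which is 1.11-fold. Mir467d and Mir467e were closer in replicate 2, where their intervals overlapped. The miR-467 family is known in mouse cells for repression of thrombospondin, an inhibitor of vessel growth.

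The 3 miR-669 rows came next, in the same order in both libraries. Mir669o (ENSMUSG00000077086.1, 10514300 to 10514395) had 1555 and 1680 counts, or 279 and 278 CPM. Mir669l (ENSMUSG00000076959.1, 10468971 to 10469068) had 1029 and 1034 counts, or 185 and 171 CPM. Mir669c (ENSMUSG00000076118.1, 10509296 to 10509404) had 576 and 670 counts, or 103 and 111 CPM. Each step was larger than its spread. Mir467e exceeded Mir669o 3.02-fold (log2 1.60 ± 0.0333), Mir669o exceeded Mir669l 1.57-fold (0.65 ± 0.0739) and Mir669l exceeded Mir669c 1.66-fold (0.73 ± 0.149).

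Below Mir669c the levels dropped 9.74-fold (log2 3.28 ± 0.314) to Mir669e. Mir669e had 69 and 59 counts, or 12.4 and 9.77 CPM, and Mir466n had 49 and 65 counts, or 8.80 and 10.8 CPM. Their order changed between the libraries. Mir669h had 17 and 8 counts, or 3.05 and 1.32 CPM, and Mir297a-2 had 5 counts in each library, or 0.898 and 0.828 CPM. The other 16 rows with any count held at most 6 counts in a library, and 24 in all in replicate 1 and 18 in replicate 2.

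**Figure D1:**
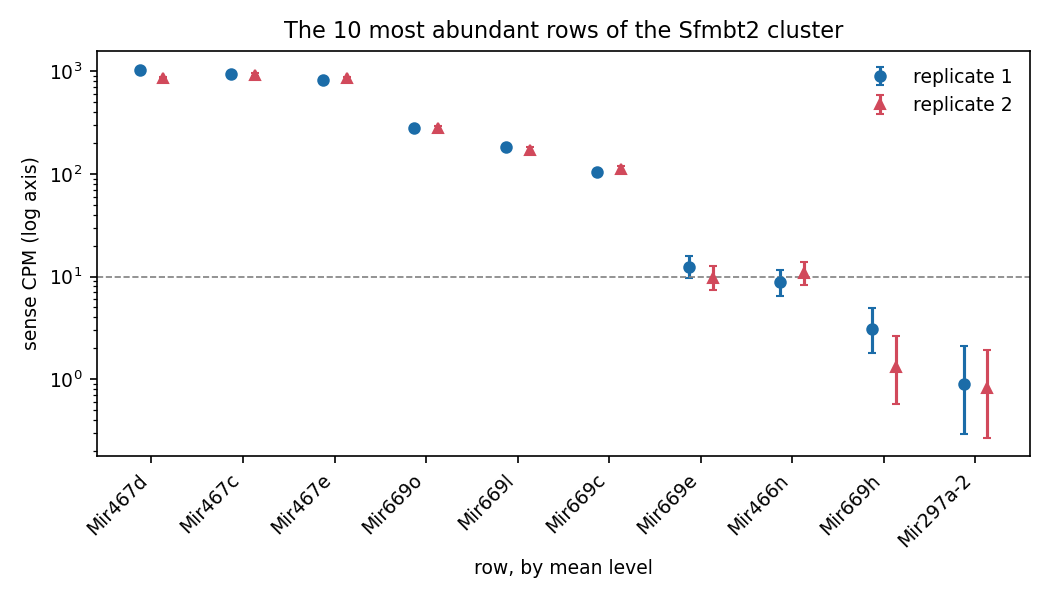
Sense counts per 1000000 (CPM, log axis) of the 10 most abundant rows of the Sfmbt2 cluster in replicate 1 (circles) and replicate 2 (triangles), with exact 95% intervals from the counts; the dashed line marks 10 CPM. Mir467d, Mir467c and Mir467e lie between 831 and 1023 CPM, Mir669o, Mir669l and Mir669c between 103 and 279 CPM, and Mir669e and Mir466n fall on either side of the line.

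By family, miR-467 rows made 82.2% ± 0.407 of the cluster's counts and miR-669 rows 17.4% ± 0.360. The 20 miR-466 rows made 0.338% ± 0.0590, with 11.2 ± 1.56 CPM in all, most of it at Mir466n. The 5 miR-297 rows held 5 and 6 counts, and the 48 predicted rows 8 and 4 counts. Counts were uneven inside each family too. Of 14 miR-467 rows, Mir467c, Mir467d and Mir467e held 15600 of 15603 counts in replicate 1 and 15971 of 15974 in replicate 2, while the 10 rows named Mir467a held 2 and 0. Mir467b held 1 and 3. The miRNA miR-669a is known to hold back skeletal muscle differentiation in cardiac progenitors. Of its rows, Mir669a-3 had 2 counts in replicate 1 and 0 in replicate 2, and Mir669a-1 and Mir669a-2 had 0 in both. Every stretch of 22 nucleotides in the hairpins of Mir669a-1, Mir669a-2 and the 10 Mir467a rows is also held by another miRNA gene. In Mir669a-3 this holds for 68.2% of stretches. Counts at such rows alone do not show a low level, since reads of repeated sequence may be set apart. This limit also holds for the family shares. The median share of such stretches was 100% in miR-467 rows, 59.2% in miR-669, 62.9% in miR-466, 70.1% in miR-297 and 88.7% in predicted rows.

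Almost all counts lay on either side of a block inside the array, and few lay within it. Between Mir467c and Mir467e stand 60 rows over 30341 nucleotides, from 10474433 to 10504773, and together they held 5 counts in replicate 1 and 4 in replicate 2. A count in both libraries was found at 1 of these 60 rows, Mir467b. The 17 rows before this block, Mir467c included, held 34.1% ± 0.509 of the cluster's counts and the 30 rows after it 65.9% ± 0.505. These limits were set after the values were seen. The block is tandem repeated: its 10 Mir467a rows follow each other at a median distance of 2462 nucleotides (2413 to 4880).

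**Figure D2:**
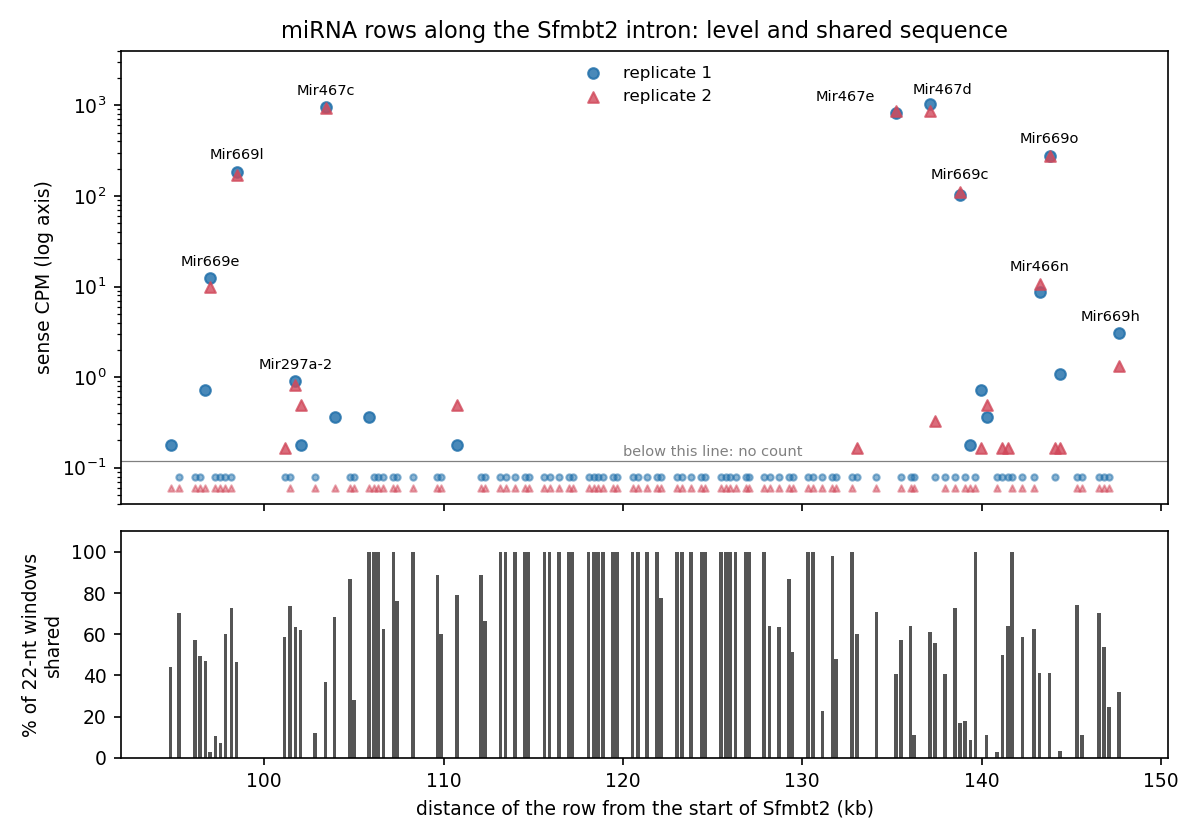
Upper panel: sense CPM (log axis) of each of the 107 rows in replicate 1 (circles) and replicate 2 (triangles) against distance from the start of Sfmbt2, with rows at 0 counts under the grey line. Lower panel: share of each hairpin's 22-nucleotide windows that another miRNA gene also holds; the 60 rows in the middle hold at most 3 counts each, and 40 of them have every window shared.

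How far rows repeat each other was measured from GENCODE M21 transcripts. Each hairpin was divided into all its windows of 22 nucleotides, about the length of a mature miRNA, and a window was called shared where a miRNA gene at another locus holds it on either strand. A median of 72.6% of windows were shared over the 107 cluster rows, against 0% over rows outside. In 42 of 107 rows every window was shared, and 38 of these have a hairpin identical to that of at least 1 other gene. Every window was shared in 212 of 1787 rows outside the cluster.

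Rows without any window of their own had almost no counts. Of the 42, 41 held 0 counts in both libraries, and the exception, Mir467a-1, held 2 counts in replicate 1 and 0 in replicate 2. All 38 rows with an identical copy held 0. Of the 65 rows with at least 1 unshared window, 25 had a count and 15 (23.1%) had 1 in both libraries. Outside the cluster, 3 of 212 rows without an unshared window had a count (Gm23935 with 628 and 552, Gm24245 with 17 in each, and Gm23419 with 0 and 2), and 2 of these had it in both libraries. With an unshared window, 527 of 1575 (33.5%) had a count in both. Windows of 20 or 18 nucleotides gave the same shares in the cluster. Loci of 1 array share their origin and are not replicates, so these shares carry no test. If multi-mapping reads do not enter gene rows, low counts at fully shared rows were largely set in advance by the counting.

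An unshared window did not go with counts in every row. The windows run over the whole hairpin, and where the mature strand lies was not used. A row with unshared windows can thus still hold a shared mature strand. All 6 abundant rows share part of their hairpin: Mir669c 17.0% of its windows, Mir467c 36.8%, Mir467e 40.9%, Mir669o 41.3%, Mir669l 46.8% and Mir467d 60.9%. Mir467c and Mir467e have a run of 48 nucleotides in common, and Mir467d shares a run of 60 with 10 other genes. Conversely, 10 of 17 rows with under 30% of windows shared had no count, a share of 58.8% beside 64.9% of all rows. Over the 1575 rows outside the cluster with an unshared window, this share was close to it, at 58.1%. Mir669b at 10.5%, Mir466l at 11.0% and Mir669i at 24.5% were among the 10, and Mir466g, with 0% shared, held 0 and 1 counts. Among rows with an unshared window, 6 of 65 cluster rows (9.23%) and 274 of 1575 rows outside (17.4%) reached 10 CPM in both libraries.

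**Figure D3:**
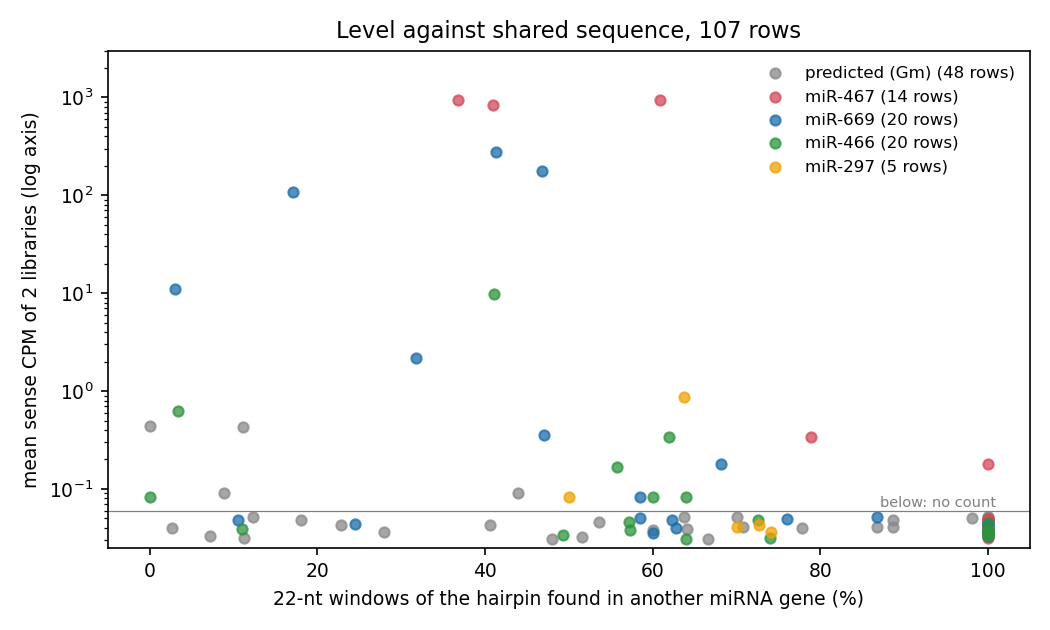
Mean sense CPM of 2 libraries (log axis) against the share of 22-nucleotide windows found in another miRNA gene, 1 point per row, coloured by family, with rows without counts under the grey line (spread vertically for display; points at 100% overlap). The 6 rows above 100 CPM share between 17.0% and 60.9% of their windows, and 41 of the 42 rows at 100% have no count.

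Multi-mapping reads are set apart as a class in the tables, with 3263825 reads in replicate 1 and 3436774 in replicate 2. That is 172 and 176 times the counts of the cluster. No source states whether such reads also enter gene rows. If they do not, a mature miRNA made by several identical loci is missing from its rows, and the cluster's total is a lower bound. How much of this class came from the Sfmbt2 array was not tested, and neither was the share of windows that unannotated sequence also holds. Of the 60 rows in the repeated block 40 have every window shared, while others at 0, such as Gm23988 with 22.8%, have windows of their own.

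No read lay on the strand opposite to any of the 107 rows in either library, which also held for the rows of Mir290a to Mir295 and Mir302b to Mir367. Over all 1973 rows such reads made 4.96% and 5.18% of assigned reads, and they lay at 61 rows.

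The libraries were then set against each other. The exact conditional binomial test, run with Benjamini-Hochberg adjustment over the 288 genes whose mean reached 10 CPM, compares these libraries and not conditions, and its p-values cover counting error only. Calls needed a ratio of 1.5 or more and an adjusted p under 0.05. Of 7 cluster rows tested, 0 were called, against 5.90% of all genes tested, and 1 had an unadjusted p under 0.05. At any ratio, 1 of 7 had an adjusted p under 0.05, against 61.5% of all genes. This count changed with the scaling: with TMM factors it was 4 of 7 (Mir467d, Mir467c, Mir467e and Mir669c), against 58.3% of all genes. On summed sense counts the row was Mir467d, with a log2 ratio of replicate 1 over replicate 2 of 0.25 (adjusted p = 4.18e-19, exact binomial test), and 30.2% of the 288 genes lay at least as far from 0. The log2 ratio lay above 0 in 5 of 7 rows, against 65.6% of all genes, and with TMM factors in 3 of 7. The median absolute log2 ratio was 0.10 over the 7 rows and 0.16 over all genes.

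The cluster's total had a log2 ratio of replicate 1 over replicate 2 of 0.07 on summed sense counts (exact binomial test, p = 8.15e-07), -0.031 with TMM factors (p = 0.0360) and -0.044 with DESeq2 size factors (p = 0.00284). The DESeq2 size factors were 1 in each library, so that ratio compares counts without scaling. No direction can be read from these ratios, since it turned with the scaling. On summed sense counts the 288 genes had a median of 0.10, and TMM lowered each ratio by 0.10. Without Mir467d the ratio was 0.0016 (exact binomial test, p = 0.928). Mir467c and Mir669o also changed sign with TMM factors, from 0.03 to -0.08 and from 0.01 to -0.10.

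The distal Dlk1-Dio3 cluster on chromosome 12, from Mir379 to Mir410, is the other large imprinted miRNA array of the mouse. Its 37 rows took 3.17% ± 0.170 of sense counts, 9.57 times the Sfmbt2 share (log2 ratio of Sfmbt2 over it -3.26 ± 0.0258, SD, n = 2; -3.28 in replicate 1 and -3.24 in replicate 2). At least 10 CPM in both libraries was reached by 27 of 37 rows there, led by Mir487b at 7566 ± 11.9 CPM, Mir411 at 7120 ± 707 CPM and Mir369 at 3962 ± 154 CPM. Of its 37 hairpins, 36 had no shared window, while every window was shared in 42 of the 107 Sfmbt2 rows. If multi-mapping reads do not enter gene rows, the Sfmbt2 share is a lower bound and 9.57 may overstate the difference. An exact permutation of signs over 2 libraries gives no p under 0.5, so the ratio is given with its spread alone.

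The pluripotency clusters are the other miRNA arrays best known from early embryonic cells. Mir302b to Mir367 took 2337 CPM in replicate 1 and 2636 CPM in replicate 2, below the Sfmbt2 total of 3398 and 3231 CPM in each. Its highest rows were Mir302a at 1061 ± 55.4 CPM, Mir302d at 720 ± 114 CPM and Mir302b at 625 ± 33.1 CPM. Mir302a lay above each Sfmbt2 row in replicate 2, and in replicate 1 its 1022 CPM was level with the 1023 CPM of Mir467d. If multi-mapping reads do not enter gene rows, the Sfmbt2 levels set beside it may be too low. Mir290a to Mir295 took 120 and 105 CPM, led by Mir293 at 61.0 ± 1.75 CPM, Mir294 at 25.4 ± 9.25 CPM and Mir292 at 18.5 ± 3.01 CPM. Neither cluster had a row with a shared window, and all of their 12 rows had a count in at least 1 library. A count in both was found at 6 of 7 rows of Mir290a to Mir295 and 4 of 5 of Mir302b to Mir367.

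**Figure D4:**
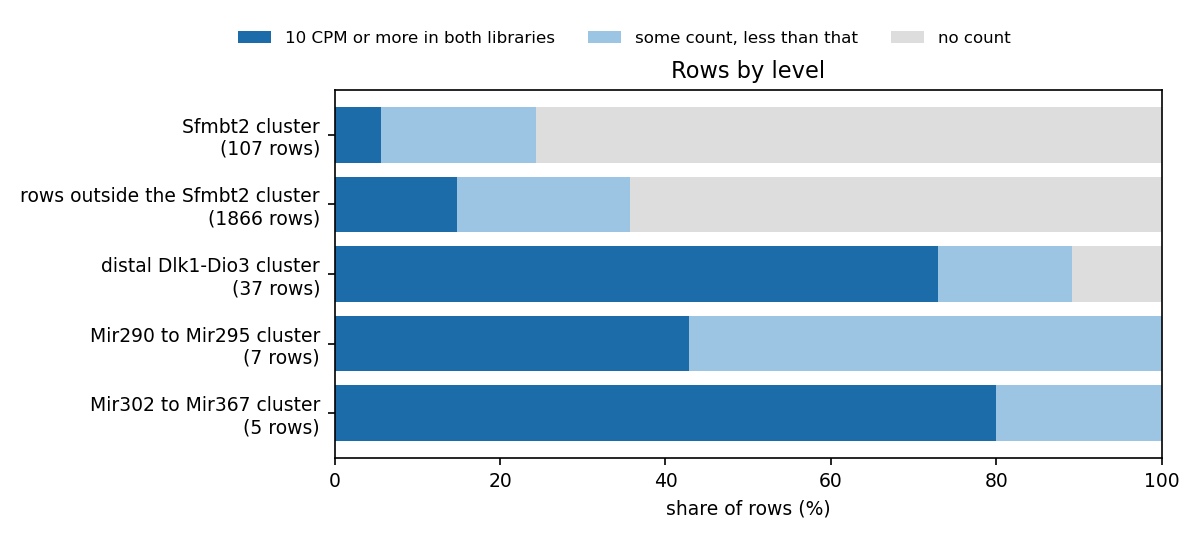
Share of rows (%) that reached 10 CPM in both libraries (dark), had some count below that (light) or no count (grey), for the Sfmbt2 cluster, all other rows and 3 other miRNA clusters. The dark share is 5.61% of 107 Sfmbt2 rows and 73.0% of the 37 distal Dlk1-Dio3 rows. Every 22-nucleotide window was shared in 42 of the Sfmbt2 rows and in 0 of the distal Dlk1-Dio3 rows.

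The libraries held 12136246 and 12282789 reads, of which 5569959 and 6039005 were sense counts. Markers of the labelled tissue were present: the 3 myosin-intron miRNAs of heart muscle, Mir208a, Mir208b and Mir499, summed to 50718 and 53387 CPM. Rows listed as markers of other cells had counts too. The 1 endothelial marker had 74876 and 66025 CPM, and 2 of 2 smooth muscle markers 85136 and 93532 CPM in sum. The 5 listed pluripotency markers summed to 2297 and 2572 CPM, and 4 of 5 reached a mean of 10 CPM. Mir302a, Mir302b and Mir302d lay between 602 and 1101 CPM, but Mir294 had 32.0 and 18.9 CPM and Mir295 1.44 and 3.31 CPM. Whether the hearts held pluripotent cells was not tested. Lower sums were found for 3 of 3 epithelial markers (1434 and 1116 CPM) and 2 of 2 erythroid markers (1159 and 897 CPM). The leukocyte marker Mir223 (441 and 310 CPM) and the hepatocyte marker Mir122 (201 and 591 CPM) were lower still. The other listed leukocyte marker, Mir142, matched no row by that symbol and was not measured here. Which cells of the heart hold the Sfmbt2 miRNAs was not tested.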

How the data were processed

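The authors deposited raw read counts per miRNA gene for 2 libraries, aligned to mm10 and counted on GENCODE M4, per the notes the submitters placed beside the files. Which aligner, counter and trimming were used is not given in the sources used here. Columns hold counts on both strands, sense and opposite; sense counts were used, with CPM on their sum and without the read-class rows. Of 1973 identifiers 1894 matched GENCODE M21 on the same build, and the 79 others, with at most 2 counts, have no place here. The members and lists were chosen with earlier results of these data known.

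Named were rows at a mean of 10 CPM, the 10 most abundant, any row called between the libraries, any row with more opposite than sense counts, and 3 rows of each comparison cluster. Others were chosen after their values were seen. Since mature sequences of the members were not used, the planned split by shared mature sequence was made on windows of 22 nucleotides of 2202 hairpins, leaving out overlapping genes as partners.

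The ratio between libraries used a pseudocount of 1 CPM. With 1 group no quasi-likelihood test could be made, so a two-sided exact conditional binomial test was used, checked on simulated counts. Those counts held counting error only, so the check does not cover other spread between libraries. Intervals are Clopper-Pearson at 95%. Alternatives used TMM (edgeR 4.0.16) and DESeq2 1.42.0 factors in R 4.3.3. Other steps used Python 3.11.15, numpy 2.4.6, pandas 2.3.3, scipy 1.17.1 and matplotlib 3.10.9.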

Additional observations from a re-analysis of the deposited data

How the results depend on the processing

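The cluster's share of 0.331% became 0.315% with both strands counted, 0.157% of all reads of the tables and 0.372% without the most abundant gene in the denominator; it was 0.323% and 0.340% in single libraries. The log2 ratio between the libraries turned from 0.07 to -0.031 with TMM factors (exact binomial p = 0.0360). It was -0.044 with DESeq2 size factors (exact binomial p = 0.00284), which were 1 in each library and so left counts unscaled. On summed sense counts it fell to 0.0016 without Mir467d (exact binomial p = 0.928). The causes were not tested. The ratio to the distal Dlk1-Dio3 cluster moved to -3.57 with both strands, where 44748 and 43109 opposite reads enter that cluster. Rows with a count in both libraries numbered 15, or 10 with at least 3 counts; rows at 10 CPM numbered 6 or 7, and 9 at 1 CPM. No cluster row was called under any of 7 alternatives, which called between 2 and 45 genes in all. Rows chosen by unshared windows were an alternative added after the data were seen and moved neither the share nor the ratio to Dlk1-Dio3 by more than the spread. That outcome was nearly fixed in advance, since the cluster rows left out held 2 counts in replicate 1 and 0 in replicate 2. It says nothing on reads that repeated sequence may keep out of the rows. Splits by mature sequence or by matches over the genome were not run. For reads that enter gene rows, depth limits a row at 0 to 3 counts, 0.539 and 0.497 CPM in replicates 1 and 2.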
